A study of Mus musculus with 36 samples.

Results

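The 7 genes described here are 4 matrix metalloproteinases (Mmp13, Mmp2, Mmp14 and Mmp3) and 3 tissue inhibitors of metalloproteinases (Timp1, Timp2 and Timp3). They were chosen by the gene symbol that the array annotation gives to each probe, which found 13 probes for the 7 genes among 25697 probes and 18138 symbols. Messenger RNA was measured on 36 Illumina MouseRef-8 v2.0 arrays, in the femoral callus of a closed fracture on 5 days, named D3, D7, D14, D21 and D28 for the days since fracture, and at D0, which per the study's methods is the same region of intact femora although the labels call all samples callus. Each day was sampled in RAG1-/- mice, which carry a homozygous knockout of recombination activating gene 1 in every tissue and lack mature B and T cells, and in WT mice. All mice were male, 8 weeks old and of the C57BL/6N strain, but the 2 genotypes came from different suppliers, so genotype and source cannot be told apart. RNA of 5 mice was pooled for each of the 12 genotype and day groups, and each pool was put on 3 arrays. Replicates within a group are therefore technical. The p-values within a day rest on the spread of arrays within pools, shared over the 12 groups, which holds no spread between mice. That spread was unequal, since arrays of a group correlated at 0.983 to 0.995 in RAG1-/- and at 0.885 to 0.994 in WT.

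Matrix metalloproteinases are zinc-dependent endopeptidases that are made as inactive proenzymes and cut proteins of the extracellular matrix once the propeptide is removed. In healing bone they take apart the soft cartilage callus before it is replaced by bone and later help to remodel the hard callus. Collagenase 3 (Mmp13) opens fibrillar collagen of types I, II and III and is made by hypertrophic chondrocytes and osteoblasts. Gelatinase A (Mmp2) degrades denatured collagen and basement membrane collagen, and its proenzyme is activated at the cell surface by the membrane-bound collagenase Mmp14, with Timp2 as the bridge between them. Stromelysin 1 (Mmp3) cuts proteoglycans and fibronectin and activates other proenzymes. The Timps bind the active enzymes one to one. Timp1 inhibits most secreted metalloproteinases but is a poor inhibitor of membrane-bound ones, and Timp3 is held in the matrix and also inhibits aggrecanases and the sheddase Adam17.

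The start-site regions of 3 of the genes are shown because Mmp13 and Timp1 followed the same course in WT callus and Mmp3, an AP-1 target with Mmp13, stayed near the array floor. Each sequence is the 250 bases before the RefSeq start (GRCm38.p6) on the gene's strand. Mmp13 lies at chr9:7272264-7272513, Mmp3 at chr9:7445572-7445821 and Timp1 at chrX:20869916-20870165, all on the plus strand. Capitals mark the letters TGANTCA, an AP-1 motif that reads the same on both strands, and ACCACA or TGTGGT, a RUNX motif on either strand.
Mmp13: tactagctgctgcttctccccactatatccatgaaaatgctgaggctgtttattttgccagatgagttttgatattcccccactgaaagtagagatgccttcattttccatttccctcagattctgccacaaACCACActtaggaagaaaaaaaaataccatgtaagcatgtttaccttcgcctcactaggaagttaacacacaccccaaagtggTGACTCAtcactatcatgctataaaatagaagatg
Mmp3: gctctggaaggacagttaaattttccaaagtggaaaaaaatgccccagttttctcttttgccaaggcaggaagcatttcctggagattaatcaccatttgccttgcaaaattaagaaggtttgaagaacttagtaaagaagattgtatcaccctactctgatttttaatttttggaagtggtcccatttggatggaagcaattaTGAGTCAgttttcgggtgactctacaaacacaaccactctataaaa
Timp1: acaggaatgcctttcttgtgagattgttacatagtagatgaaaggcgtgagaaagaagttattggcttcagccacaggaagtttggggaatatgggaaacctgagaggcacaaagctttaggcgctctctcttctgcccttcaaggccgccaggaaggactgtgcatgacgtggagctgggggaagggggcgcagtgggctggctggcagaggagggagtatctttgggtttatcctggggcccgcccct
Counted back from the base before the start, the Mmp13 window held an AP-1 match at -35 to -29, a RUNX match at -118 to -113 and the letters TATAAA at -16 to -11. The Mmp3 window held an AP-1 match at -46 to -40 and TATAAA at -7 to -2, and the Timp1 window held none of these letters. Of 32851 RefSeq windows of that length, 6.75% held the AP-1 motif, 14% the RUNX motif, 7.59% TATAAA on the gene's strand, and 1.01% both AP-1 and RUNX letters, as that of Mmp13 did. A window was at hand for 6 of the 7 genes, all but Mmp2. The Mmp14 window held a RUNX match at -114 to -109, and those of Timp2 and Timp3 held no match. AP-1 and RUNX factors are known regulators of Mmp13 transcription, but a match here describes only the letters.

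Several groups of arrays stood apart, and the comparisons at D3, D7 and D14 rest on them. The 6 WT arrays of D3 and D7 lay at 81.82 to 87.95 on the first principal component, which held 38.54% of the variance, and the other 30 lay between -33.89 and 15.19. In these WT groups the muscle light chain gene Mylpf averaged 4.80 at D3 and 5.04 at D7 while all other groups were at 12.17 to 14.27, whereas the muscle gene Pvalb was at 14.97 and 14.93. The myeloid gene Lyz2 (4.33 and 4.29, all other groups 6.03 to 9.33) and the fibroblast gene Lum (5.22 and 5.24, all other groups 7.98 to 10.46) were low in the same WT groups. Within WT D14, replicates 2 and 3 correlated at 0.994 with each other and at 0.948 to 0.950 with their own replicate 1. Their highest correlation with a RAG1-/- D21 array was 0.984 each, and that of replicate 1 was 0.951. The Rag1 probe was near the floor, at 4.40 to 4.90 in RAG1-/- and 4.34 to 6.80 in WT arrays, with no day called (smallest adjusted p = 0.126 by limma, at D3), and no source used here gives its place relative to the deleted part. Lymphocyte markers cannot check the labels either, since 2 of 8 T cell and 1 of 8 mature B cell genes were bright enough to be tested. Skeletal muscle genes (12 of 12 tested) averaged 12.43 to 13.26 over the RAG1-/- groups and 11.54 to 13.44 over the WT groups, among the brightest on the arrays, beside osteoblast and osteocyte genes (10 of 12 tested) at 8.89 to 10.51 in RAG1-/- and 8.34 to 10.40 in WT.

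All values are log2 intensities, on which a difference of 1 is a 2-fold change. Values near 4.72, the median of all probe means, are called near the floor, and a gene was tested with its brightest probe above it. All 7 genes passed, among 10291 genes tested. The brightest probes of Mmp13, Mmp2, Timp1 and Timp2 averaged 12.51, 10.97, 11.33 and 11.10, those of Mmp14 and Timp3 9.89 and 8.45, and that of Mmp3 5.39. These levels belong to different probes and do not rank the genes. Of the 13 probes, 7 were well above the floor on every array, and the other 6, namely the dimmer pair of Mmp13, all 3 of Mmp3 and the second of Timp3, averaged 4.73 to 5.39. As a consequence, Mmp13 and Timp3 rest on 1 informative probe each, as do Mmp2, Mmp14 and Timp2, which have no other, and Timp1 alone was read by a bright pair.

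**Figure D1:**
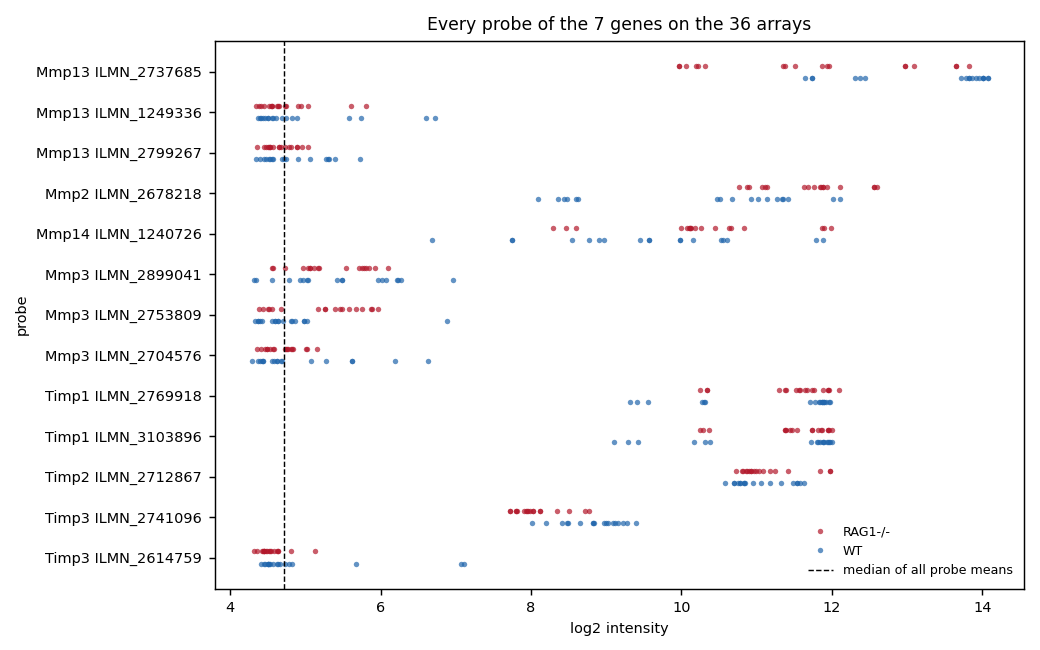
Log2 intensity (horizontal axis) of the 13 probes of the 7 genes (rows) on 36 arrays, with RAG1-/- arrays above WT arrays in each row and the median of all probe means as a dashed line. Both Timp1 probes lie between 9.11 and 12.09, whereas 6 probes of Mmp13, Mmp3 and Timp3 lie around the dashed line.

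**Figure D2:**
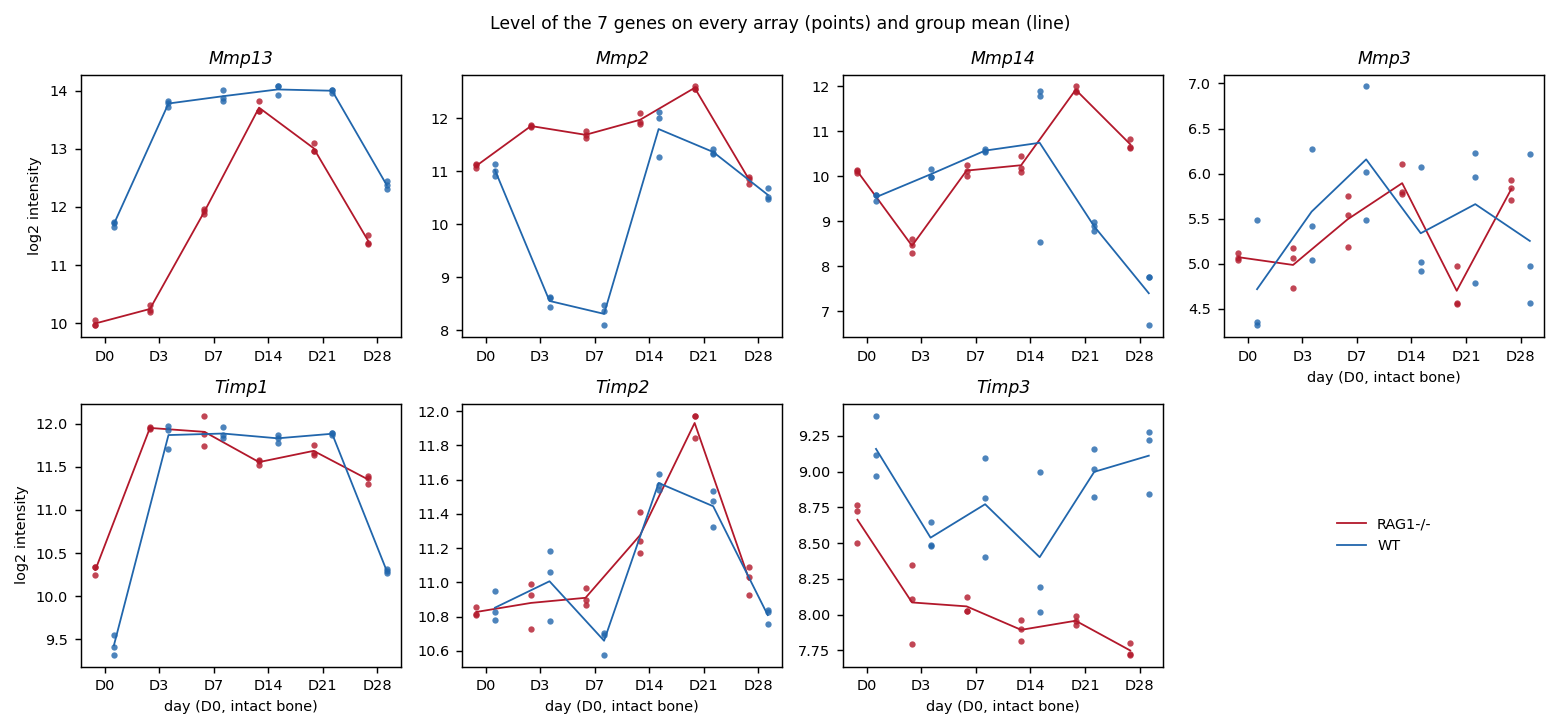
Log2 intensity (vertical axis, its own scale in each panel) of the 7 genes by day, with a point for each array and a line through the means of 3 arrays, for RAG1-/- and WT. Mmp13 stays below WT on every RAG1-/- array of a day, Mmp2 is at 8.09 to 8.62 on the WT D3 and D7 arrays, and the 3 WT D14 arrays of Mmp14 are at 8.54, 11.89 and 11.79.

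Mmp13, the collagenase, was lower in RAG1-/- than in WT at D0, D3, D7, D21 and D28, with the largest difference at D3. Both genotypes had their highest mean at D14, but WT was close to it from D3 on. In WT, D14 replicate 1 (13.92) lay below all D21 arrays (13.96 to 14.01), so D14 as the highest WT day rests on replicates 2 and 3. The RAG1-/- arrays read 9.96, 10.06 and 9.97 at D0, 10.32, 10.22 and 10.19 at D3, 11.87, 11.96 and 11.93 at D7, 13.64, 13.64 and 13.83 at D14, 13.09, 12.97 and 12.97 at D21, and 11.38, 11.52 and 11.35 at D28. The WT arrays read 11.73, 11.74 and 11.65 at D0, 13.72, 13.83 and 13.78 at D3, 13.83, 13.87 and 14.01 at D7, 13.92, 14.07 and 14.07 at D14, 14.01, 13.96 and 14.01 at D21, and 12.31, 12.44 and 12.37 at D28. At every day all 3 RAG1-/- arrays lay below all 3 WT arrays. WT callus was thus at its plateau by D3 and held it to D21, with the arrays of each day overlapping those of the next, whereas RAG1-/- callus was still near its D0 level at D3 and climbed to 13.71 ± 0.11 (SD, n = 3 arrays) only at D14. Among these WT groups, D3 and D7 are those that stand apart on the first principal component. WT D14 holds the replicates 2 and 3 that correlated better with RAG1-/- D21 than with their own replicate 1. The differences (RAG1-/- minus WT, SE 0.10) were -1.71 at D0, -3.53 at D3 (adjusted p = 6.45e-21), -1.98 at D7 (adjusted p = 1.5e-15), -0.31 at D14 (adjusted p = 0.0636), -0.99 at D21 (adjusted p = 2.22e-08) and -0.96 at D28 (adjusted p = 2.85e-08), all by limma. At D14, the day not called, the value was -0.36 (adjusted p = 0.0119) without WT D14 replicate 1 and -0.21 (adjusted p = 0.385) without replicates 2 and 3.

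Against D0, Mmp13 in RAG1-/- callus did not pass at D3 (+0.25, adjusted p = 0.108) and was higher by 1.93 at D7, 3.71 at D14, 3.01 at D21 and 1.42 at D28. In WT callus the change was already 2.07 at D3 and stayed at 2.20, 2.31 and 2.29 to D21, and at D28 it was 0.67 (adjusted p = 7.2e-06), which is under the 2-fold limit set for these comparisons. Both genotypes dropped between D21 and D28, by 1.59 in RAG1-/- (adjusted p = 2.09e-12) and by 1.62 in WT (adjusted p = 9.35e-12). Between neighbouring days Mmp13 rose in RAG1-/- callus from D3 to D7 (+1.68) and from D7 to D14 (+1.78), while the same steps in WT were +0.13 and +0.12. The change to D3 differed between genotypes by -1.82 (adjusted p = 3.22e-11) and the change to D14 by +1.40 (adjusted p = 2.43e-08).

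Mmp2, the gelatinase, was higher in RAG1-/- than in WT at D3, D7 and D21. RAG1-/- arrays read 11.14, 11.11 and 11.07 at D0, 11.88, 11.84 and 11.85 at D3, 11.76, 11.69 and 11.63 at D7, 11.89, 12.10 and 11.93 at D14, 12.56, 12.56 and 12.60 at D21, and 10.89, 10.76 and 10.86 at D28. WT arrays read 10.92, 11.14 and 11.02 at D0, 8.44, 8.60 and 8.62 at D3, 8.48, 8.36 and 8.09 at D7, 11.27, 12.02 and 12.11 at D14, 11.41, 11.35 and 11.33 at D21, and 10.52, 10.48 and 10.68 at D28. RAG1-/- callus moved by less than 2 log2 units over the 6 days and was highest at D21, and the wide spread of Mmp2 came from the WT groups of D3 and D7. These are the WT groups that stand apart on the first principal component. The differences were 3.30 at D3 (adjusted p = 1.27e-16), 3.38 at D7 (adjusted p = 1.09e-16) and 1.21 at D21 (adjusted p = 8.36e-07), with an SE of 0.15, and 0.08, 0.17 and 0.28 at D0, D14 and D28 (adjusted p = 0.771, 0.812 and 0.155). Against D0 only D21 was called in RAG1-/- (+1.47, adjusted p = 1.34e-08), and in WT the changes to D3 and D7 were -2.47 and -2.71. WT rose by 3.49 between D7 and D14, and RAG1-/- dropped by 1.73 between D21 and D28. Without WT D14 replicates 2 and 3, Mmp2 at D14 was higher in RAG1-/- by 0.71 (adjusted p = 0.00145), and without replicate 1 the value was -0.09 (adjusted p = 0.925).

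Mmp14, the membrane-bound activator of Mmp2, was lower in RAG1-/- than in WT at D3 and higher at D21 and D28. RAG1-/- arrays read 10.07, 10.12 and 10.12 at D0, 8.59, 8.47 and 8.30 at D3, 10.26, 10.12 and 9.99 at D7, 10.45, 10.09 and 10.18 at D14, 11.99, 11.90 and 11.86 at D21, and 10.83, 10.66 and 10.63 at D28. WT arrays read 9.57, 9.45 and 9.57 at D0, 9.98, 9.98 and 10.16 at D3, 10.56, 10.53 and 10.61 at D7, 8.54, 11.89 and 11.79 at D14, 8.97, 8.90 and 8.77 at D21, and 7.75, 6.68 and 7.75 at D28. The groups did not overlap at D0, D3, D7, D21 and D28, and at D14 the RAG1-/- arrays lay inside the range of the WT arrays. The differences were -1.59 at D3 (adjusted p = 0.00486), 3.04 at D21 (adjusted p = 1.51e-05) and 3.31 at D28 (adjusted p = 3.67e-06), against 0.57 at D0 (adjusted p = 0.434) and -0.44 at D7 (adjusted p = 0.44). The SE of 0.46 is shared by all groups and carries the WT D14 spread (SD 1.90, n = 3 arrays).

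The D14 value of Mmp14 is set by which WT D14 arrays are used. It was -0.50 (adjusted p = 0.855) with all of them, -1.60 (adjusted p = 1.7e-06) without replicate 1 and +1.70 (adjusted p = 5.07e-05) without replicates 2 and 3, so no direction can be given for Mmp14 at D14. With either of these left out, the differences at D0 (+0.57) and D7 (-0.44) passed as well, at adjusted p = 0.0173 and 0.0371 without replicate 1 and 0.0208 and 0.0422 without replicates 2 and 3. Against D0, Mmp14 was higher in RAG1-/- at D21 (+1.81, adjusted p = 0.0039) and lower in WT at D28 (-2.14, adjusted p = 0.000831), while the change to D3 in RAG1-/- was -1.65 at an adjusted p of 0.0146, short of the limit of 0.01 (1.6e-07 without WT D14 replicates 2 and 3). WT also dropped by 1.86 from D14 to D21 (adjusted p = 0.00873), but the arrays of these days overlap and the call held in 8 of 36 fits that left out 1 array each (-2.96 to -1.28, adjusted p up to 0.13). That step was +0.34 (adjusted p = 0.956) without WT D14 replicates 2 and 3. The D21 call in RAG1-/- was lost in 6 of 36 fits that left out 1 array each, whenever a RAG1-/- D0 or D21 array was left out, with adjusted p up to 0.0166 and a change of 1.78 to 1.84.

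Mmp3, the stromelysin, had no day called between genotypes with all arrays weighted alike, and its levels were too dim to order the groups. With array weights D14 (+0.93, adjusted p = 5.67e-05) and D21 (-1.10, adjusted p = 0.00916) were called, in opposite directions, and D21 was also called without WT D21 replicate 3 (-1.40, adjusted p = 0.0224). The weighted D14 value rests on WT D14 replicates 2 and 3, with weights of 8.28 and 2.46 against 0.116 for replicate 1. Group means of Mmp3 ran from 4.70 to 5.89 in RAG1-/- and from 4.72 to 6.16 in WT, and all 11 pairs of neighbours in their order overlapped. At D21, the day with the smallest adjusted p (0.0946), the arrays read 4.56, 4.97 and 4.57 in RAG1-/- and 6.23, 5.96 and 4.79 in WT. The 1 call was a higher level in WT at D7 than at D0 (+1.44, adjusted p = 0.00551), although the D7 arrays (5.48, 6.97 and 6.02) overlapped the D0 arrays (5.49, 4.35 and 4.31). It was lost without WT D0 replicate 2 or 3 or WT D7 replicate 2 or 3 (adjusted p up to 0.0594). In a limma fit of all 25697 probes, tested or not, the other 2 probes read +0.97 (adjusted p = 0.0338) and +0.73 (adjusted p = 0.176). In that fit the second probe passed between genotypes at D28 (+0.97, adjusted p = 0.0459), where the brightest gave +0.58 (adjusted p = 0.437) and the dimmest -0.96 (adjusted p = 0.0814), so the 3 probes of Mmp3 disagree in sign.

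Timp1, an inhibitor of secreted metalloproteinases, rose in both genotypes by D3 and differed between them at the first and last day. RAG1-/- arrays read 10.24, 10.33 and 10.33 at D0, 11.95, 11.96 and 11.95 at D3, 11.89, 12.09 and 11.74 at D7, 11.58, 11.57 and 11.52 at D14, 11.66, 11.64 and 11.76 at D21, and 11.30, 11.38 and 11.39 at D28. WT arrays read 9.55, 9.41 and 9.32 at D0, 11.97, 11.93 and 11.71 at D3, 11.96, 11.83 and 11.87 at D7, 11.88, 11.78 and 11.84 at D14, 11.89, 11.87 and 11.89 at D21, and 10.31, 10.30 and 10.27 at D28. The genotypes overlapped at D3 and D7, WT was slightly above at D14 and D21, and RAG1-/- was above on every array of D0 and D28. The differences were 0.88 at D0 (SE 0.10, adjusted p = 2.16e-07) and 1.06 at D28 (adjusted p = 1.3e-08), and -0.28 at D14 and -0.20 at D21 did not pass (adjusted p = 0.154 and 0.17). All 5 days were higher than D0 in RAG1-/-, by 1.65, 1.60, 1.25, 1.38 and 1.05 in time order. In WT the changes were 2.44, 2.46, 2.40 and 2.46 to D21 and 0.87 at D28 (adjusted p = 2.97e-07, under 2-fold). WT dropped by 1.59 between D21 and D28 (adjusted p = 2.75e-11), and RAG1-/- by 0.33 (adjusted p = 0.0291, not called). In the limma fit of all 25697 probes the second Timp1 probe gave 1.02 at D0 and 1.09 at D28. It also passed at D14 with -0.48 (adjusted p = 0.000868).

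Timp2, the bridge between Mmp14 and the Mmp2 proenzyme and itself an inhibitor of both, was the steadiest of the bright genes. Its group means ran from 10.83 to 11.93 in RAG1-/- and from 10.66 to 11.58 in WT. At D21 the arrays read 11.97, 11.85 and 11.97 in RAG1-/- and 11.53, 11.48 and 11.33 in WT, a difference of 0.49 (adjusted p = 0.00171) and the only day called. RAG1-/- at D21 was also 1.10 above D0 (adjusted p = 1.43e-08), and WT was 0.73 above it at D14 (adjusted p = 9.49e-06) and 0.59 at D21 (adjusted p = 0.000179), both under 2-fold. Mmp2, Mmp14 and Timp2 each had their highest RAG1-/- mean at D21, at 12.58, 11.92 and 11.93. The marker genes of osteoblasts and osteocytes, hypertrophic cartilage, cartilage and fibroblasts were highest among the RAG1-/- groups on that day as well. They averaged 10.51, 10.48, 7.60 and 9.19, and skeletal muscle genes were at their lowest RAG1-/- mean (12.43). The part of such shifts in these peaks was not tested.

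Timp3, the matrix-bound inhibitor, had a lower mean in RAG1-/- than in WT at every day, and the difference passed at D7, D21 and D28. RAG1-/- arrays read 8.50, 8.72 and 8.77 at D0, 8.11, 7.79 and 8.35 at D3, 8.03, 8.03 and 8.12 at D7, 7.90, 7.96 and 7.82 at D14, 7.99, 7.95 and 7.93 at D21, and 7.80, 7.73 and 7.72 at D28. WT arrays read 8.97, 9.39 and 9.12 at D0, 8.48, 8.65 and 8.49 at D3, 8.41, 8.82 and 9.09 at D7, 8.99, 8.02 and 8.19 at D14, 9.16, 8.82 and 9.02 at D21, and 8.84, 9.22 and 9.28 at D28. No RAG1-/- array reached a WT array of its own day. The differences were -0.71 at D7 (adjusted p = 0.00332), -1.04 at D21 (adjusted p = 0.000208) and -1.36 at D28 (adjusted p = 5.99e-06), with an SE of 0.19, and -0.50, -0.45 and -0.51 at D0, D3 and D14 (adjusted p = 0.0728, 0.0545 and 0.17). At D14 the value was -1.10 (adjusted p = 0.00147) without WT D14 replicates 2 and 3 and -0.21 (adjusted p = 0.724) without replicate 1. With all arrays weighted alike, no change against D0 was over 2-fold in either genotype. The WT change to D14 (-0.76), however, was called without WT D14 replicate 1 (-1.05, adjusted p = 2.17e-05) and with array weights (-1.09, adjusted p = 2.1e-05). Both settings rest on WT D14 replicates 2 and 3, which had weights of 8.28 and 2.46 against 0.116 for replicate 1. Replicate 1 read 8.99, within the range of the WT D0 arrays (8.97 to 9.39). The widest change against D0 in RAG1-/- was at D28, at -0.91 (adjusted p = 0.00119), where WT stood at -0.05 (adjusted p = 0.898). In the fit with RAG1-/- changes set against WT changes, that gap was -0.87 (adjusted p = 0.0343), short of 2-fold.

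Counted over the 7 genes, 17 of 42 comparisons between genotypes were called, and the share has to be read against all genes tested. At D0, 2 of 7 were called (20.2% of all tested genes), 1 higher and 1 lower in RAG1-/- (12.8% and 7.39%). At D3 and again at D7, 1 was higher and 2 were lower (26.1% and 23.5% of all genes at D3, 27.2% and 21.4% at D7). At D14 none was called (4.65% of all genes, 2.65% higher and 2% lower). There 4 of 7 had an unadjusted p under 0.05 by limma and 3 of 7 by the methods' t-test, of which 0 passed after Benjamini-Hochberg adjustment. The share of all genes was not taken at an unadjusted limit, so those counts have no baseline. At D21, 5 were called (24.6% of all genes), 3 higher and 2 lower (14.7% and 9.87%), and at D28, 4 were called (29.4%), 2 higher and 2 lower (19.5% and 9.91%). The share at D3 and D7 is near that of all genes, since these WT groups differ from RAG1-/- in 49.6% and 48.5% of the genes tested. The median difference of the 7 genes was 0.08, -0.45, -0.44, -0.30, -0.20 and 0.28 from D0 to D28, against 0.05, -0.05, -0.01, -0.00, 0.03 and 0.08 over all genes. In bulk tissue, fewer cells that make a transcript and less of it per cell cannot be told apart.

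**Figure D3:**
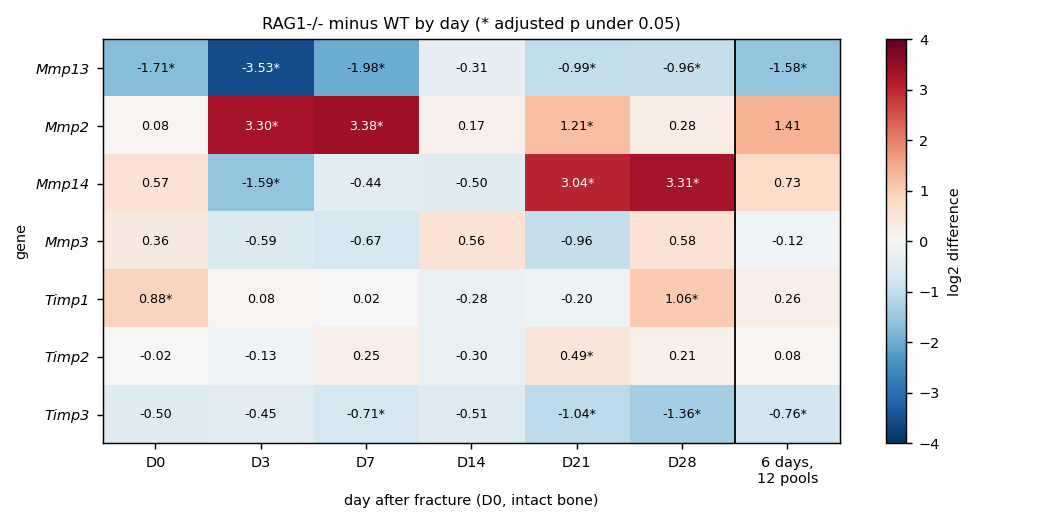
Log2 difference between RAG1-/- and WT (RAG1-/- minus WT) for the 7 genes (rows) by day (columns), with an asterisk at an adjusted p under 0.05 by limma and, right of the line, the difference over the 6 days on the means of the 12 pools. Mmp13 is negative in every column and Timp3 too, while Mmp2 has its largest values at D3 (3.30) and D7 (3.38) and Mmp14 at D21 (3.04) and D28 (3.31).

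Against D0, 24 of 70 comparisons were called. In RAG1-/- callus 1 of the 7 genes was higher at D3 (0.972% of all genes), 2 at D7 (1.02%), 2 at D14 (2.58%), 5 at D21 (3.63%) and 2 at D28 (2.13%). None was called lower there, where 2.07%, 1.8%, 2.45%, 4.25% and 2.13% of all genes were lower in time order. The 5 of D21 were Mmp13, Mmp2, Mmp14, Timp1 and Timp2. In WT callus, 2 were higher and 1 lower at D3 (13.3% and 14% of all genes), 3 higher and 1 lower at D7 (12.2% and 14%), 2 higher and none lower at D14 (7.74% and 5.19%), 2 higher and none lower at D21 (4.7% and 5.39%), and none higher and 1 lower at D28 (3.26% and 6.62%). The change against D0 in RAG1-/- differed from that in WT, by over 2-fold with an adjusted p under 0.05, in 3 of 7 genes at D3 (25% of all genes), 1 at D7 (21.8%), 2 at D14 (10.6%), 3 at D21 (8.47%) and 1 at D28 (8.99%). Between neighbouring days 8 of 56 comparisons were called. In RAG1-/- these were 1 from D3 to D7 (0.486% of all genes in either direction), 1 from D7 to D14 (2.84%), none from D14 to D21 (2.44%) and 2 from D21 to D28 (4.01%). In WT they were none from D3 to D7 (2.34%), 1 from D7 to D14 (26%), 1 from D14 to D21 (2.61%) and 2 from D21 to D28 (3.7%). Of the 7 genes, 5 had an unadjusted p under 0.05 by limma in the RAG1-/- step from D14 to D21 and 1 in the WT step from D3 to D7. No share of all genes was taken at that unadjusted limit, so these counts have no baseline.

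**Figure D4:**
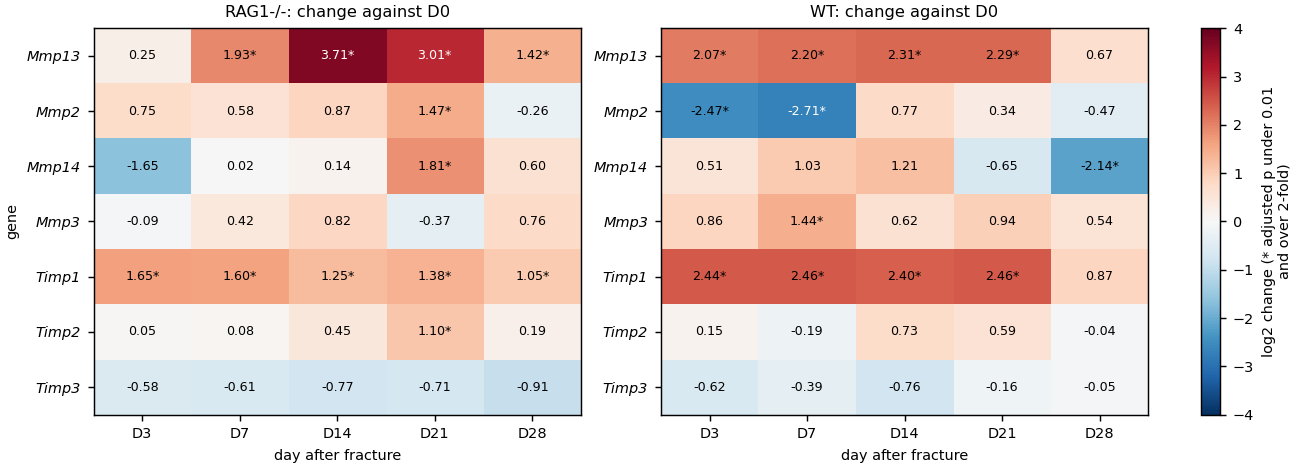
Log2 change against D0 for the 7 genes (rows) at D3 to D28 (columns), in RAG1-/- (left) and WT (right), with an asterisk where the adjusted p by limma is under 0.01 and the change over 2-fold. Mmp13 reaches 3.71 at D14 in RAG1-/-, while in WT it is at 2.07 to 2.31 from D3 to D21, and Timp1 is at 1.05 to 1.65 in RAG1-/- against 0.87 to 2.46 in WT.

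The comparison over the 6 days treats each pool as 1 sample, so it has 6 pairs of pools of separate mice and is the test here that includes spread between pools. Mmp13 was lower in RAG1-/- (-1.58, SE 0.37, adjusted p = 0.0497, lower at 6 of 6 days), and Timp3 was lower too (-0.76, SE 0.18, adjusted p = 0.0498, lower at 6 of 6 days). These 2 of 7 compare with 1.47% of all genes called lower, no gene of the 7 was called higher (3.02% of all genes), and both sit just inside the limit. Mmp2 was 1.41 higher (adjusted p = 0.0927, higher at 6 of 6 days), Mmp14 0.73 higher (adjusted p = 0.399, 3 of 6 days), Timp1 0.26 higher (adjusted p = 0.403, 4 of 6 days), Timp2 0.08 higher (adjusted p = 0.738) and Mmp3 gave -0.12 (adjusted p = 0.739). Without D3 and D7 the values were -0.99 for Mmp13, -0.85 for Timp3 and +0.44 for Mmp2, at adjusted p = 0.2, 0.2 and 0.346. Over both genotypes, with the pools as samples, no gene tested passed against D0 at any day (0% of all genes). Among the 7 genes 1 to 3 had an unadjusted p under 0.05 at a day by limma, a limit at which all genes were not counted. The smallest adjusted p over both genotypes was 0.202, for Timp1 at D21 (+1.92), and Mmp13 at D14 gave +3.01 (adjusted p = 0.227).

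Over the 12 group means the spans of Mmp14, Mmp2 and Mmp13 were 4.52, 4.27 and 4.02, larger than in 99%, 98.6% and 98.1% of the genes tested. Timp1 spanned 2.52 (86.6%), and Mmp3, Timp3 and Timp2 spanned 1.46, 1.41 and 1.27, around the middle of all genes. The source of the span differed by gene. Mmp13 varied more in RAG1-/- (3.71, WT 2.31), whereas Mmp2 varied more in WT (3.49, RAG1-/- 1.73). In WT, Mmp13 and Timp1 moved together over the 6 group means (r = 0.99), and in RAG1-/- they did not (r = 0.42). These correlations run over pools that share arrays, normalization and the outlying WT groups, and they carry no p.

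The genes most like each of the 7 over the 12 group means were found by Pearson's r among all genes tested. For Mmp13 they were Mmp9, the gelatinase of osteoclasts and neutrophils (r = 0.96), Bdh2 and Agap1. For Mmp2 they were Copz2 (r = 0.98), LOC100046650 and Dynll1. For Mmp14 the best were Meis1 (r = 0.87), Trim59 and Ergic1, and for Timp1 P4ha2, a subunit of collagen prolyl hydroxylase (r = 0.95), Preb and Tgfb1. Timp2 was closest to Lrp10 (r = 0.92), LOC670044 and Ext1, Timp3 to Crebbp (r = 0.91), A1bg and Dgka, and Mmp3 to Cmya1 (r = 0.85), 2810410C14Rik and 2810432L12Rik. Over the 6 RAG1-/- groups alone, which leave out the outlying WT groups, the nearest genes were different ones. There they were Cercam, Col4a2 and Pthr1 for Mmp2 (r = 0.99 each), Nek8, Irx5 and Fam110b for Mmp13, Raet1b, Khdrbs2 and Dspp for Mmp14, and Ranbp1, 5630401D24Rik and Txnl4 for Timp1. Timp2 was nearest to Bpil1, Zfp296 and 2510012J08Rik, Timp3 to Bbs5, Nr1d2 and AI317395, and Mmp3 to Mrps9, Ret and Pon2. Each of these genes was picked for the highest r of 10291 genes over only 12 or 6 group means. Mmp3, near the floor, reached 0.99 over the 6 RAG1-/- groups too (with Mrps9). How high r runs by such a search alone was not tested.

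Other metalloproteinases and inhibitors were counted in lists drawn up by known function. Of 18 further matrix metalloproteinases on the array 8 were bright enough to test. From D0 to D28, 2, 1, 1, 0, 3 and 3 of these 8 were higher in RAG1-/- and 2, 3, 3, 1, 1 and 3 were lower, with a median difference of -0.49 at D7 to 0.41 at D28. Of all genes, 12.8%, 26.1%, 27.2%, 2.65%, 14.7% and 19.5% were higher and 7.39%, 23.5%, 21.4%, 2%, 9.87% and 9.91% lower on these days. Over all genes tested the median lay between -0.05 and 0.08 at every day, and the medians of the lists below are read beside it. Mmp9 was lower at D0, D3, D7 and D28, with differences of -1.04, -3.09, -1.73 and -1.01 (adjusted p = 4.17e-07 or smaller), and it read -0.16 at D14 and +0.20 at D21, neither called. Its largest difference, like that of Mmp13, was at D3. Mmp1a, an interstitial collagenase of the mouse, was lower at D0, D3, D7, D21 and D28 (-2.28 to -1.62) and over the 6 days (-1.54, adjusted p = 0.046, lower at 5 of 6 days), and its probe may not separate it from the close copy Mmp1b. Its call over the 6 days sits just inside the limit, beside 1.47% of all genes called lower, and was not tested under other settings. The membrane-bound Mmp16 was higher at D21 (+2.15, adjusted p = 0.000892), and Mmp17, which is anchored by a lipid, was lower at D3 (-1.75) and D7 (-0.91). Of 5 other inhibitors 2 were tested. Reck, a membrane-anchored inhibitor of Mmp2, Mmp9 and Mmp14, was higher at D0 (+0.69, adjusted p = 0.034) and D21 (+0.73, adjusted p = 0.0202), and Pcolce, which mainly speeds procollagen processing, was higher at 5 days and most at D3 (+4.77) and D7 (+3.74), with -0.31 at D14 (adjusted p = 0.959). The other 3, Timp4 among them, were below the cut. Reck and Mmp17 themselves averaged 4.97 and 5.12 over all arrays, near the floor.

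Proteases and partners that work with these enzymes gave mixed counts, to be read beside 12.8%, 26.1%, 27.2%, 2.65%, 14.7% and 19.5% of all genes called higher in RAG1-/- from D0 to D28 and 7.39%, 23.5%, 21.4%, 2%, 9.87% and 9.91% called lower. Of 11 ADAM and ADAMTS genes tested (of 21), 2, 2, 0, 0, 2 and 3 were higher in RAG1-/- from D0 to D28 and 0, 2, 3, 0, 0 and 0 lower (medians -0.23 to 0.44). The aggrecanase gene Adamts4 was higher at D21 (+1.94, adjusted p = 0.00332) and D28 (+1.98, adjusted p = 0.00245), Adamts18 at D0 (+1.88), D3 (+0.92) and D21 (+1.62), and Adam17, the sheddase that Timp3 inhibits, at D28 (+1.54, adjusted p = 0.00417), while Adamts15 was lower at D7 (-1.33, adjusted p = 0.012). Of 6 plasminogen system genes tested (of 9), 0, 2, 1, 0, 1 and 1 were higher and 0, 1, 2, 0, 0 and 0 lower (medians -0.49 to 0.24). Plau, the urokinase that activates plasminogen, was higher at D3 (+1.59), D21 (+2.03) and D28 (+1.60), Thbd, the thrombin receptor thrombomodulin, was higher at D3 (+1.30) and D7 (+1.41), Serpine2, an inhibitor of urokinase and thrombin, was lower at D3 (-1.97) and D7 (-1.27), and Serpinf2, the plasmin inhibitor, was lower at D7 (-0.80). Of 11 activators and membrane partners tested (of 14), 3, 3, 4, 1, 3 and 5 were higher and 0, 3, 1, 0, 1 and 2 lower (medians -0.05 to 0.24). Cd63, the cell-surface partner of Timp1, was higher at D0, D3, D7, D21 and D28 by 0.59 to 1.29, and Pcsk7, a convertase of proenzymes, at D7 (+1.67) and D28 (+1.68). Cd44, which docks metalloproteinases at the membrane, was lower at D3 (-1.52), D7 (-1.33) and D21 (-0.44), and the syndecan gene Sdc1 was lower at D28 (-1.51, adjusted p = 0.0397). Serpinf2, Sdc1, Adamts15 and Adamts18 averaged 4.72, 4.87, 5.075 and 5.31 over all arrays, near the floor. Of 10 other matrix proteases tested (of 15), 4, 3, 2, 0, 1 and 2 were higher and 2, 4, 4, 2, 0 and 1 lower (medians -0.24 to 0.34). Ctsk, the collagen-cutting cathepsin of osteoclasts, was lower at D0 (-1.79), D3 (-1.84), D7 (-0.93) and D28 (-1.59), and Fap was higher at D0 (+0.71) and lower at D3 (-1.90) and D7 (-2.23), whereas the lysosomal Ctsh and the gene named Ela2 on the array were higher at D3 (+2.36 and +1.69) and D7 (+2.67 and +1.79), Ctsh also at D28 (+1.93).

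Known regulators of Mmp13, Mmp3 and Timp1 were counted next. Of 16 tested (of 21), 7, 8, 10, 1, 4 and 6 were higher from D0 to D28 and 0, 1, 1, 1, 1 and 2 lower (medians 0.16 to 0.82). All genes leaned to higher calls as well, with 12.8%, 26.1%, 27.2%, 2.65%, 14.7% and 19.5% of them higher and 7.39%, 23.5%, 21.4%, 2%, 9.87% and 9.91% lower on these days. Osmr, the receptor of the inducer oncostatin M, was higher at D0 (+1.95), D3 (+2.44), D7 (+2.19), D21 (+1.28) and D28 (+1.34), and over the 6 days by 1.59 (adjusted p = 0.0457, higher at 6 of 6 days). Hdac4, which represses Runx2, was higher at D0 (+1.52), D3 (+2.16) and D7 (+1.46), Tgfb1 at D0 (+1.13) and D28 (+1.88), and the AP-1 gene Fos at D21 (+2.44, adjusted p = 0.000284). Runx2 itself was below the cut and was not tested. Of 13 matrix substrates tested (of 15), 8, 7, 8, 0, 9 and 6 were higher and 1, 3, 3, 1, 1 and 2 lower (medians -0.08 to 2.15). Acan, the aggrecan gene, was higher by 2.28 to 4.80 at every day but D14 (+0.55, adjusted p = 0.414), Col2a1, the cartilage collagen, at D0 (+1.76), D7 (+2.00), D21 (+2.76) and D28 (+1.26), Col3a1 at D0 (+1.85), D3 (+2.78) and D7 (+1.31), and Col4a2, a basement membrane collagen, at D3 (+4.31), D7 (+2.70) and D21 (+0.75). Over the 6 days Acan (+2.96), Col1a1 (+1.39), Sparc (+1.21) and Tnc (+1.50) were higher and Spp1 (-1.26) was lower (adjusted p = 0.0457 to 0.0497). Like Osmr, they sit just inside the limit, beside 3.02% of all genes called higher and 1.47% called lower. Other settings were tried for the 7 genes only, so whether these calls hold was not tested.

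Markers of cells that make these enzymes moved with genotype and day as well. Osteoclast genes (6 of 8 tested) averaged 6.09, 6.34, 6.65, 7.79, 7.71 and 6.24 in RAG1-/- from D0 to D28 and 6.53, 7.29, 7.39, 8.02, 7.65 and 6.91 in WT, and 2, 3, 3, 0, 0 and 3 of them were called lower and 1, 0, 0, 0, 0 and 1 higher. Of all genes, 7.39%, 23.5%, 21.4%, 2%, 9.87% and 9.91% were called lower and 12.8%, 26.1%, 27.2%, 2.65%, 14.7% and 19.5% higher on these days. Ctsk is a member of the osteoclast list and Tcirg1, a proton pump subunit, went the other way at D0 (8.29 in RAG1-/-, 7.40 in WT) and D28 (8.94 in RAG1-/-, 8.29 in WT). Osteoblast and osteocyte genes averaged 8.89, 9.45, 9.39, 10.17, 10.51 and 8.90 in RAG1-/- and 8.35, 9.63, 9.58, 10.40, 9.66 and 8.34 in WT, highest in RAG1-/- at D21. Hypertrophic cartilage genes (5 of 7 tested) averaged 9.41 to 10.48 in RAG1-/- (highest at D21) and 8.63 to 10.66 in WT (highest at D14), but the defining genes Col10a1 and Ihh were below the cut, at 4.45 and 4.56. Cartilage genes (7 of 12 tested) averaged 6.39 to 7.60 in RAG1-/- and 5.40 to 6.39 in WT, with Sox9 below the cut. Single WT D14 arrays ran from 7.65 to 8.22 for osteoclast genes and from 9.63 to 10.80 for osteoblast and osteocyte genes. For hypertrophic cartilage and cartilage genes they ran from 10.01 to 11.10 and from 5.94 to 6.69. In each of these lists the lowest WT D14 array fell within the WT D21 arrays, so the height of WT D14 depends on the arrays used. Fibroblast genes (9 of 10 tested) averaged 8.55 to 9.19 in RAG1-/- and 8.17, 7.50, 7.69, 8.80, 8.60 and 8.60 in WT, with the low WT values on the same days, D3 and D7, as those of Mmp2. Erythroid genes (6 of 9 tested) were lower in RAG1-/-, at 6.29 to 7.83, than in WT, at 8.48 to 11.92, except that the single WT D14 arrays ran from 7.62 to 10.15 and overlapped those of RAG1-/- D14 (7.81 to 7.85). The part of these markers in the values of the 7 genes was not tested.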

How the data were processed

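The authors deposited log2 intensities of 36 arrays, made per their methods with beadarray for pre-processing and lumi for quantile normalization. The log base was read from the range of the values, 4.17 to 15.23. Probes were named by the SYMBOL column of the deposited probe profile. A further 264 value columns are named by BeadChip position, which the labels do not pair with samples, and are not used here, so chips could not be tested as batches and detection p-values were not used. Genotype, day and replicate came from the labels. Pools held 150 ng of RNA per mouse (5 mice), and an array took 200 ng.

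Probes with a mean above 4.72, the median of probe means, were tested (12848 of 25697), each gene by its brightest probe (10291 genes, 2021 of them with several tested probes). R 4.3.3 with limma 3.58.1 fitted 12 group means. The fit had 24 residual degrees of freedom, which the number of arrays limits, and a residual SD of 0.404. The p-values were adjusted by Benjamini-Hochberg over all tested genes. A gene was called between genotypes at an adjusted p under 0.05, against D0 or between neighbouring days under 0.01 and over 2-fold, and in the difference of changes under 0.05 and over 2-fold. The means of the 12 pools were fitted with the day as a block, and with the genotype as a block for D0 comparisons over both genotypes. The methods' own test was a 2-tailed t-test. No shift of a group's median was above 0.234.

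The 7 genes and the lists were chosen with earlier results of these data known. Named genes are the 7 with all probes, the 3 most correlated genes for each, and up to 4 called genes per list with the largest difference. Genes named beyond that rule were chosen after their values were seen. Same-numbered arrays did not deviate together (18 pairs, correlations of deviations -0.034 to 0.040), so the replicate number does not pair samples. Tests were tried on simulated data with known changes. Python 3.11.15 with matplotlib 3.10.9 drew the figures. Alternatives covered the probe filter, the choice of probe, normalization, array weights, the spread model, the samples in the fit, the limits, arrays and days left out, the replicate block and the pool as a random block. Leaving out the whole WT D14 group was chosen after seeing the data.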

Additional observations from a re-analysis of the deposited data

Results flagged for a closer look

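The change against D0 differed between RAG1-/- and WT, by the interaction term in limma with an adjusted p under 0.05 and a difference over 2-fold, in 10 of 35 comparisons of the 7 genes. All genes passed in 25%, 21.8%, 10.6%, 8.47% and 8.99% of cases for D3, D7, D14, D21 and D28. Each value is the RAG1-/- change minus the WT change on the log2 scale. Mmp13 gave -1.82 at D3 (adjusted p = 3.22e-11) and 1.40 at D14 (adjusted p = 2.43e-08), with the RAG1-/- change smaller at D3 and larger at D14. Mmp2 gave 3.22 at D3 (adjusted p = 1.52e-12), 3.30 at D7 (adjusted p = 1.42e-12) and 1.13 at D21 (adjusted p = 0.000382). Mmp14 gave -2.16 at D3 (adjusted p = 0.0105), 2.46 at D21 (adjusted p = 0.00972) and 2.74 at D28 (adjusted p = 0.00406). Timp1 gave -1.15 at D14 (adjusted p = 1.43e-06) and -1.07 at D21 (adjusted p = 5.31e-06), where RAG1-/- began from a higher D0 level. The values of D3 and D7 rest on the WT groups that stand apart from all others, and those of Mmp14 carry the spread of its WT D14 arrays. Groups of 3 arrays are too small for a test of outlying samples.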

How the results depend on the processing

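The 17 genotype calls of the 7 genes numbered 11 with the second brightest probe and 12 to 25 under the other settings, the 24 calls against D0 became 42 at an adjusted p under 0.05 with no 2-fold limit, and the 8 calls between neighbouring days became 4 with the mean of a gene's probes, 4 with the second brightest probe and 14 with array weights. Leaving out 1 array gave 17 to 25 genotype calls, 23 to 29 against D0, 7 to 13 between neighbouring days (13 without WT D14 replicate 1), 10 to 12 interaction calls, 0 to 2 over the days and 0 over both genotypes. The 2 calls over the days were 0 with dim probes kept (adjusted p = 0.106 for Mmp13 and 0.0971 for Timp3), 0 with the mean of probes, 0 with the second brightest probe, 0 without any one of D0, D3, D7, D21 or D28, 0 without D3 and D7, 1 after quantile normalization was run again (Timp3, adjusted p = 0.0503) and 3 with the pool as a random block, Mmp2 added. With 1 array left out Mmp13 kept its call in 21 of 36 fits and Timp3 in 16 of 36. The pool as a random block, which shares 1 correlation (0.448) over all genes, gave 10 calls against D0 over both genotypes in place of 0. The share of all genes called was taken for the main settings only, so counts under the other settings stand without a baseline.

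The second brightest Mmp13 probe, near the floor, turned 7 signs, to 0.17 at D3 and 0.0325 at D28 between genotypes, -0.0233 for RAG1-/- D28 and -0.24 for WT D3 against D0, -0.0353 for RAG1-/- from D3 to D7, and 0.29 (D3) and -0.42 (D14) for the difference of changes. Without WT D14 replicates 2 and 3, where the lone array is assumed to vary like the other groups, Mmp14 turned to 1.70 at D14 between genotypes, -2.02 and 0.34 for the WT steps into and out of D14, and 1.12 for the difference of changes to D14. Of 497 other values of the genotype comparison 445 kept their side of the limit with no called value turned in sign. So did 717 of 763 against D0, 511 of 546 between neighbouring days and 333 of 343 interactions. Among these, 5, 11, 14 and 9 values in that order changed sign where neither value was called. The replicate number did not pair the samples, and with it as a replicate block the calls were 17, 24, 7 and 10. The cause of these shifts was not tested. Probes near the floor limit Mmp3 and the second probes of Mmp13 and Timp3.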
